A study of Dugesia japonica with 15 samples.

Results

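A set of 61 genes of the freshwater planarian *Dugesia japonica* was followed whose mRNA stood at least 2-fold higher in trunk fragments at 5 days post amputation (5 dpa) than in intact animals under control RNAi. They were selected on the measured values of 28999 annotated genes with an ID of the DJKW series, so they make up 0.210% of those genes. Counts were divided by the library total to give CPM (counts per 1000000 counts of the library), each group was represented by its median, and 0.5 CPM was added before taking log2. A gene was kept if its control 5 dpa median was at least 2 CPM, if its log2 difference between control 5 dpa and control intact animals was at least 1, if every control 5 dpa library lay above every control intact library, and if its median in DjTcf4 RNAi fragments lay no more than 0.4 log2 units below that in control RNAi fragments. The last condition left out 7 genes that met all the others, so the list chosen on control libraries alone holds 68.

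Polyadenylated RNA from groups of animals was sequenced in 15 libraries: DjTcf4 RNAi 5 dpa trunk fragments (n = 3, replicates 1, 3 and 4), control RNAi 5 dpa trunk fragments (n = 4), DjTcf4 RNAi intact animals (n = 4) and control RNAi intact animals (n = 4). All animals, controls included, had received RNAi. Neither the age and strain of the animals nor the RNA used for control RNAi is given by the labels. Since they also leave unsaid whether each replicate was a group of animals of its own, the tests below weigh differences only against the spread among these samples, some of which may be technical. The fragments were trunks and the intact animals were whole, so the stage of regeneration and the body region sampled cannot be told apart. Total counts lay between 8136366 and 12224216 per library.

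Planarians regrow lost body parts from neoblasts, the dividing cells scattered through their tissue. After amputation, neoblast progeny form a blastema at the wound while the old tissue is remodelled, and gene expression shifts through phases of wound response, proliferation and differentiation. TCF proteins are transcription factors, several of which act with β-catenin in Wnt signalling, a pathway known in planarians for setting head and tail identity. Whether DjTcf4 is one of those was not examined here. The deposited table does not pair IDs with gene names, so no function can be given for a member, the knockdown of DjTcf4 has no check here, and members other than DJKW.17548 and DJKW.18090 are described by their rank in control 5 dpa CPM, called abundance here, which is not corrected for gene length. Tissue markers could not be examined for the same reason.

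The 61 genes covered a wide range of levels. The member medians at 5 dpa lay between 2.30 and 6980 CPM in DjTcf4 RNAi fragments, with a median of 16.4 CPM, and between 2.05 and 7595 CPM in control fragments, with a median of 12 CPM. In intact animals they lay between 0.0409 and 1112 CPM with DjTcf4 RNAi, median 7.08 CPM, and between 0.0442 and 1025 CPM with control RNAi, median 5.05 CPM. The median over all 17094 genes that passed the filter on low counts was 11, 10.9, 12.7 and 12.6 CPM in the same order of groups. All 61 members passed that filter. At 5 dpa in control animals, 26 members stood below 10 CPM, 28 from 10 to 100 CPM and 7 above 100 CPM. Counts of 10 members (16.4%) had a fractional part in at least 1 library, against 3242 of the tested genes (19.0%). Their counts would be unsure if they include reads split between near-identical sequences.

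The rise in control animals chose the genes and is given as a description. Its log2 difference lay between 1.0 and 4.01 with a median of 1.18, and most members sat near the limit: 48 lay from 1 to 1.5, 6 from 1.5 to 2, and 7 at 2 or more. The 5 members just inside the limit had log2 differences of 1.0 to 1.02, and the 5 genes just outside it had 0.984 to 0.995. edgeR's quasi-likelihood test called all 61 higher in control 5 dpa fragments than in control intact animals, against 14.0% of all genes tested, which follows from the selection. Membership was itself sensitive to single libraries: without control intact replicate 1 the same conditions gave 101 genes, and without control 5 dpa replicate 4 they gave 93.

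These genes stood higher at 5 dpa in DjTcf4 RNAi animals as well. In whole-tissue RNA a higher level from more cells of a type and from more RNA per cell cannot be told apart. All 61 had a higher median CPM in DjTcf4 RNAi fragments than in DjTcf4 RNAi intact animals, with log2 differences between 0.20 and 3.40, a median of 1.18, and 35 members at 1 or more. Over all genes tested the median difference was -0.10 and 42.2% were above 0. edgeR called 45 of the 61 higher and 0 lower (adjusted p under 0.05 over all genes), against 6.81% of all genes called higher. At an unadjusted p under 0.05, 53 were higher and 0 lower, against 14.0% of all genes higher. The selection used no DjTcf4 RNAi intact library, but it set a lower limit on the DjTcf4 RNAi fragments. Of the 68 genes chosen on control libraries alone, 49 were called higher and 0 lower in the fit to all 15 libraries, where the control libraries enter the filter and the estimate of spread. A fit to the 7 DjTcf4 RNAi libraries alone called 32 of the 67 that passed its filter higher and 0 lower. It called 1.61% of all genes higher. None of these 7 libraries entered the conditions on control libraries, but the list was chosen with earlier results of these data known.

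**Figure D1:**
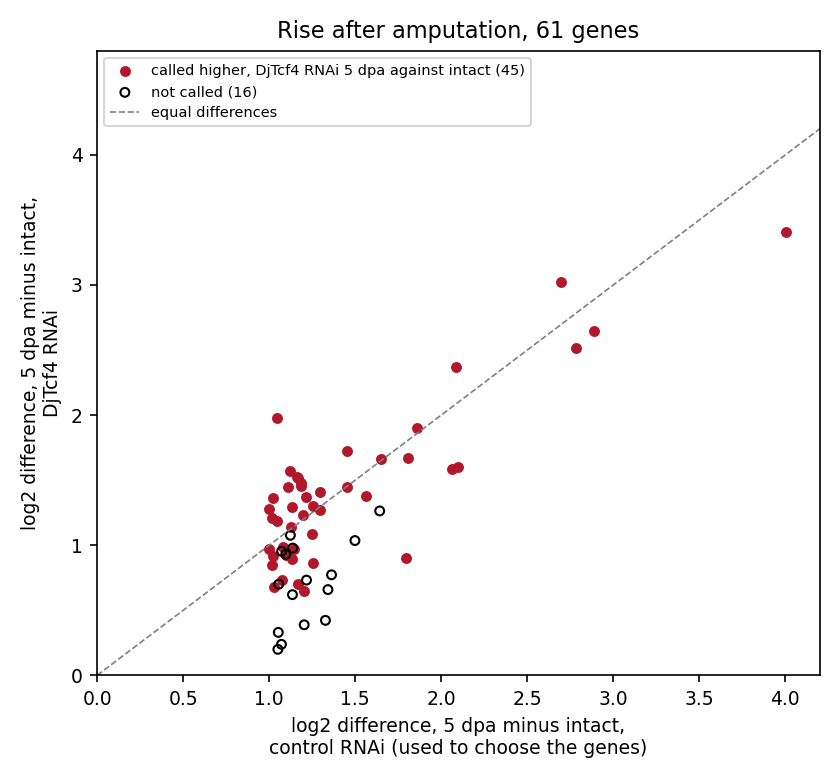
Log2 difference between 5 dpa fragments and intact animals for the 61 genes, on the y axis with DjTcf4 RNAi and on the x axis with control RNAi, where it chose the genes. Each point is 1 gene, from group median CPM plus 0.5; filled points are the 45 genes called higher by edgeR with DjTcf4 RNAi, open points the 16 not called, and the dashed line marks equal differences. All points lie above 0 on both axes, 38 below the dashed line and 23 on or above it.

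The plot of the paired differences sets the rises in the 2 treatments side by side. Across the 61 genes Pearson's r between the differences in DjTcf4 RNAi and control RNAi animals was 0.79 and Spearman's rho 0.49, given as a description across genes, which are not independent replicates. Over the 68 genes chosen on control libraries alone the values were 0.82 and 0.54. Without the 6 members of largest control difference, Pearson's r over the rest was 0.39. The difference was smaller with DjTcf4 RNAi than with control RNAi in 38 members and as large or larger in 23. The selection required a large control difference and not a large DjTcf4 RNAi one, and whether the 2 responses differed was not tested.

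DJKW.17548 was the most abundant member. Among members with whole counts in every library it also had the largest control log2 difference on the scale with 0.5 CPM added. Its level was 8239, 6980 and 5681 CPM in DjTcf4 RNAi fragments and 8796, 6727, 7798 and 7392 CPM in control fragments, against 1143, 866, 1082 and 1263 CPM in DjTcf4 RNAi intact animals and 1048, 1002, 1064 and 976 CPM in control intact animals. All 7 fragment libraries lay above all 8 intact libraries, and the 2 RNAi treatments overlapped at both stages. With DjTcf4 RNAi it averaged 6967 ± 1279 CPM at 5 dpa (SD, n = 3) and 1089 ± 166 CPM in intact animals (SD, n = 4), which edgeR fitted as a log2 fold change of 2.72 (SE 0.137, adjusted p = 1.47e-09). This gene alone supplied 66.5% to 73.0% of all member counts in DjTcf4 RNAi fragments, 68.3% to 72.9% in control fragments, 41.7% to 52.7% in DjTcf4 RNAi intact animals and 49.3% to 51.1% in control intact animals. Levels per gene length were not available, so these shares count reads and not molecules.

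DJKW.18090 was the second most abundant member. It stood at 558, 465 and 386 CPM in DjTcf4 RNAi fragments and at 729, 561, 560 and 558 CPM in control fragments. It stood at 80.4, 81.1, 65.4 and 82.2 CPM in DjTcf4 RNAi intact animals and at 87.8, 81.2, 81.2 and 70.2 CPM in control intact animals. Fragments and intact animals did not overlap in either treatment, and the 3 DjTcf4 RNAi fragment libraries lay at or below the lowest control fragment library. The rise with DjTcf4 RNAi was 2.64 as edgeR's log2 fold change (SE 0.152, adjusted p = 6.86e-09). Between DjTcf4 RNAi and control fragments the log2 fold change was -0.39 (SE 0.149, edgeR unadjusted p = 0.0169) and was not called after adjustment over all genes.

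**Figure D2:**
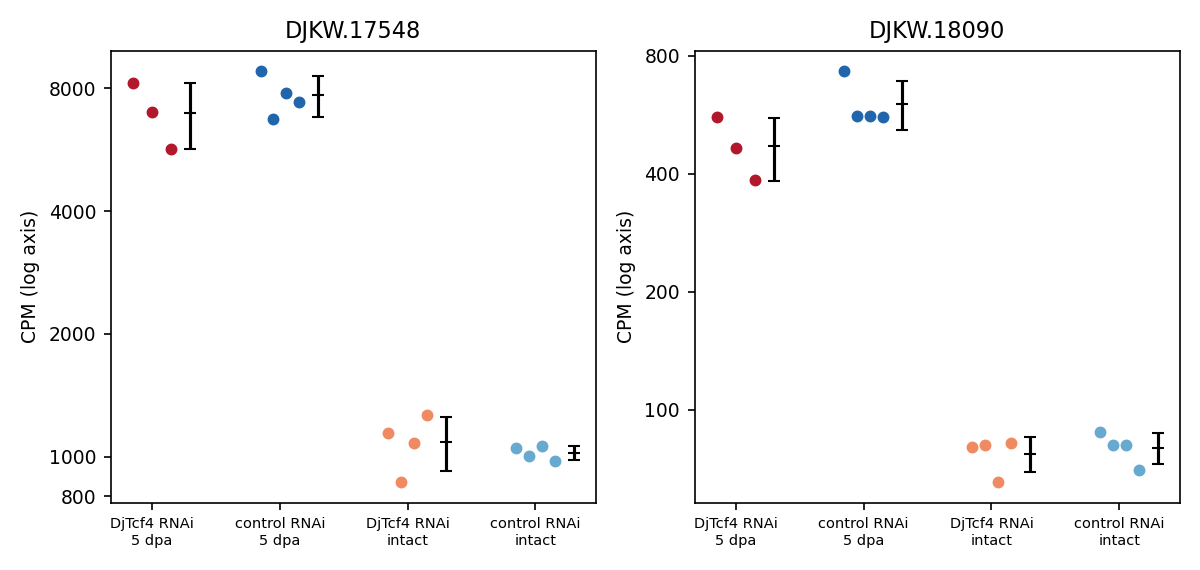
CPM of DJKW.17548 (left) and DJKW.18090 (right) in each library by group, on log axes. Points are libraries, and the bar beside each group is the mean ± SD (n = 3 for DjTcf4 RNAi 5 dpa, n = 4 for each other group). Fragment libraries lie above intact libraries in both treatments, from 5681 CPM upward for DJKW.17548 and from 386 CPM upward for DJKW.18090.

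A further 5 members exceeded 100 CPM in control fragments. The third in abundance had 440, 347 and 394 CPM in DjTcf4 RNAi fragments against 115, 89.7, 151 and 132 CPM in DjTcf4 RNAi intact animals (edgeR log2 fold change 1.74, SE 0.127, adjusted p = 1.07e-07). Its control levels were 473, 514, 476 and 414 CPM in fragments and 125, 146, 130 and 140 CPM in intact animals. The libraries of the 2 treatments overlapped at both stages. The fourth stood at 414, 360 and 422 CPM in DjTcf4 RNAi fragments against 164, 148, 189 and 170 CPM in DjTcf4 RNAi intact animals (edgeR log2 fold change 1.29, SE 0.115, adjusted p = 1.49e-06). The fifth, which had the smallest control difference of all members, stood at 289, 349 and 341 CPM against 153, 153, 107 and 129 CPM in the same groups (edgeR log2 fold change 1.30, SE 0.174, adjusted p = 0.000133). In neither gene did fragments and intact animals overlap.

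The sixth stood out for the small spread of its fragments, which held 238, 246 and 243 CPM with DjTcf4 RNAi and 266, 265, 254 and 246 CPM with control RNAi. With DjTcf4 RNAi its intact libraries held 87.8, 127, 85.5 and 89.3 CPM, where replicate 2 stood above the others, and the log2 fold change at 5 dpa was 1.34 in edgeR (SE 0.148, adjusted p = 1.67e-05). The seventh held 99.5, 97.1 and 86.0 CPM in DjTcf4 RNAi fragments against 25.3, 45.7, 26.5 and 37.0 CPM in DjTcf4 RNAi intact animals (edgeR log2 fold change 1.51, SE 0.201, adjusted p = 0.000133), again with replicate 2 the highest intact library. Its control levels were 128, 106, 110 and 115 CPM in fragments and 32.9, 23.0, 27.7 and 24.2 CPM in intact animals. All 7 members at 100 CPM or more were therefore called higher at 5 dpa with DjTcf4 RNAi, against 6.81% of all genes tested. Of tested genes with a mean of 17.6 to 4004 CPM over all libraries, 12.7% were called higher.

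The next 3 members in abundance were called as well. The eighth held 69.6, 85.0 and 73.8 CPM in DjTcf4 RNAi fragments against 42.9, 26.0, 32.0 and 49.4 CPM in DjTcf4 RNAi intact animals (edgeR adjusted p = 0.000896). The ninth held 43.6, 39.8 and 41.7 CPM against 12, 24.1, 12.8 and 14.2 CPM in the same groups (edgeR adjusted p = 0.00137), and its 3 fragment libraries with DjTcf4 RNAi lay just below the lowest of 59.3, 53.8, 51.4 and 43.8 CPM in control fragments. The tenth went the other way between treatments, with 96.7, 94.2 and 71.3 CPM in DjTcf4 RNAi fragments and 56.2, 59.2, 48.3 and 44.8 CPM in control fragments, without overlap, though the difference of 0.72 in log2 fold change (SE 0.269, edgeR unadjusted p = 0.0171) was not called after adjustment.

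The member of largest control difference, whose counts were in part fractional, held 37.5, 42.0 and 20.8 CPM in DjTcf4 RNAi fragments and 38.0, 29.5, 37.2 and 39.1 CPM in control fragments. In intact animals it held 2.95, 3.22, 1.62 and 4.72 CPM with DjTcf4 RNAi and 2.38, 0.946, 1.61 and 2.13 CPM with control RNAi. Its log2 fold change with DjTcf4 RNAi was 3.42 in edgeR (SE 0.311, adjusted p = 2.2e-06), the highest in that comparison among members with more than 3 counts in the intact group.

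A low-level member came close to an on-or-off pattern. It had 33, 40 and 46 counts in DjTcf4 RNAi fragments and 35, 26, 24 and 33 counts in control fragments, against 1, 0, 0 and 1 counts in DjTcf4 RNAi intact animals and 1, 0, 0 and 1 counts in control intact animals. Every fragment library of both treatments thus held at least 24 counts, and no intact library held more than 1. It was called higher at 5 dpa with DjTcf4 RNAi (edgeR adjusted p = 2.19e-06), and no fold is given because the intact groups hold so few counts. Another had 38, 33 and 42 counts in DjTcf4 RNAi fragments and 33, 14, 23 and 38 in control fragments, against 4, 11, 1 and 1 in DjTcf4 RNAi intact animals and 2, 0, 6 and 3 in control intact animals (edgeR adjusted p = 0.00288 for DjTcf4 RNAi). Here most of the intact counts with DjTcf4 RNAi came from replicate 2.

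The remaining members among the 10 of largest control difference were of low abundance. A gene with whole counts held 9.94, 5.74 and 6.35 CPM in DjTcf4 RNAi fragments against 1.14, 2.14, 1.53 and 0.736 CPM in DjTcf4 RNAi intact animals (edgeR log2 fold change 2.43, SE 0.397, adjusted p = 0.000673). Another, with fractional counts, held 3.25, 3.86 and 6.18 CPM against 3.01, 1.77, 1.91 and 1.51 CPM in the same groups (edgeR log2 fold change 1.18, SE 0.343, adjusted p = 0.0304). All 10 members of largest control difference were thus called higher at 5 dpa with DjTcf4 RNAi, against 6.81% of all genes tested.

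The members were also summed up library by library. The selection set control fragments above control intact animals and put a lower limit on DjTcf4 RNAi fragments. The places of those groups are therefore a description, and only the DjTcf4 RNAi intact libraries did not enter the conditions of the selection. For each library the median over the 61 genes of log2(CPM + 0.5) minus that gene's control intact mean was taken. It was 1.41, 1.43 and 1.35 in DjTcf4 RNAi fragments, 1.34, 1.33, 1.18 and 1.10 in control fragments, 0.14, 0.63, -0.01 and 0.42 in DjTcf4 RNAi intact animals, and 0.22, -0.01, -0.05 and -0.16 in control intact animals. Over all genes tested the same value lay between -0.07 and 0.06 in every library. With DjTcf4 RNAi the library values averaged 1.40 ± 0.039 at 5 dpa (SD, n = 3) and 0.30 ± 0.286 in intact animals (SD, n = 4), so the intact libraries were the more variable ones.

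**Figure D3:**
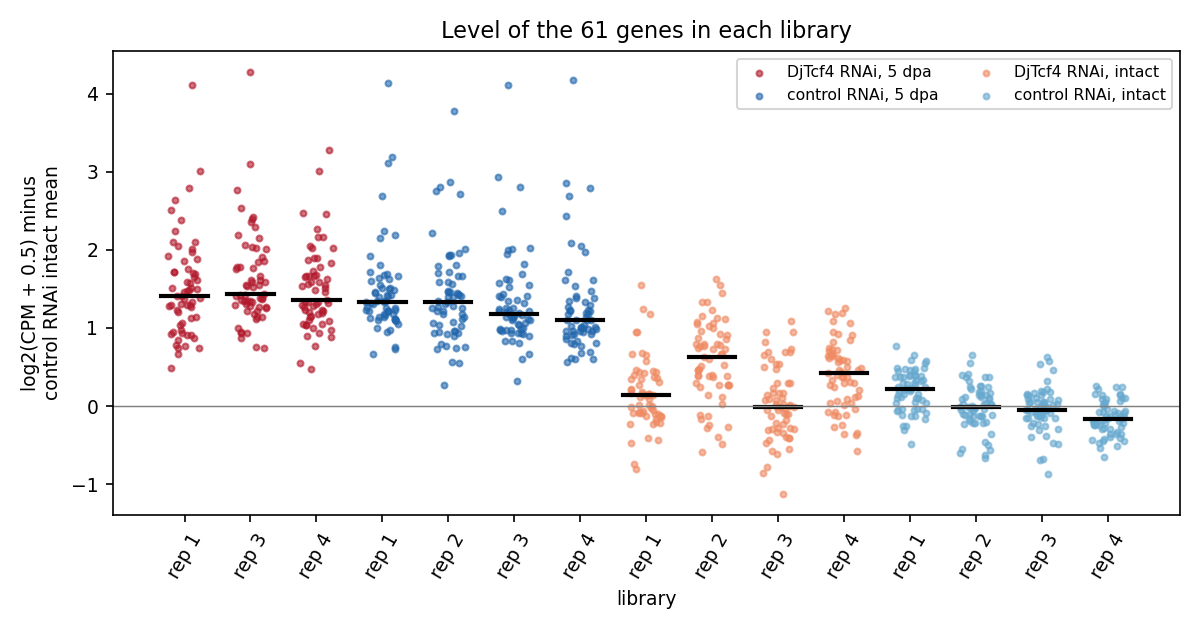
Level of the 61 genes in each library, as log2(CPM + 0.5) minus the gene's mean over control RNAi intact libraries. Each point is 1 gene, the black bar is the library's median, and colours mark the 4 groups. The medians lie from 1.10 to 1.43 in the 7 fragment libraries and from -0.16 to 0.63 in the 8 intact libraries, the highest of these being DjTcf4 RNAi intact replicate 2.

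DjTcf4 RNAi intact replicate 2 stood apart from the other intact libraries. For 36.4% of all genes tested it lay above every control intact library, against 23.0%, 25.4% and 22% for DjTcf4 RNAi intact replicates 1, 3 and 4. Among the 61 members it lay above every control intact library for 46, against 19, 19 and 37 for replicates 1, 3 and 4, and it was the highest of its group for 34 members and for 35.7% of all genes tested. It reached the lowest control fragment library for 17 members, against 5, 2 and 10 for replicates 1, 3 and 4. Replicate 4 therefore also lay toward the fragments for the members, without a raised share over all genes tested. Genes with a count numbered 22092 in replicate 2 and 20928 to 22977 in the other DjTcf4 RNAi intact libraries. The part of these libraries in the results was not tested, and counts are given with and without replicate 2.

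Without DjTcf4 RNAi intact replicate 2, 54 of the 61 members were called higher at 5 dpa with DjTcf4 RNAi, against 17.3% of all genes tested, and 58 of the 68 genes chosen on control libraries alone. All 45 genes called with that library were among the 54. In the fit to the 7 DjTcf4 RNAi libraries alone 28 members were called, against 1.61% of all genes. Without replicate 2 that fit also called 54, against 17.4% of all genes. By position alone, 50 members had every DjTcf4 RNAi fragment library above every DjTcf4 RNAi intact library, against 11.3% of all genes tested, and 54 without replicate 2, against 19.7%. The median log2 difference at 5 dpa with DjTcf4 RNAi was 1.35 without this library.

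The 16 members not called are described here by their levels, with no test, since a high level in DjTcf4 RNAi intact libraries is itself part of what keeps a gene from being called. Their median control fragment level was 5.05 CPM, against 18.6 CPM for the 45 called, and their log2 fold changes lay between 0.38 and 1.16 with edgeR adjusted p from 0.0514 to 0.496. On a scale that puts a gene's control intact mean at 0 and its control fragment mean at 1, their median position was 0.91 in DjTcf4 RNAi intact replicate 2 and 0.68 in replicate 4, but 0.04 in replicate 1 and 0.25 in replicate 3. For the 45 called members it was 0.32, 0.22, 0.10 and -0.01 in replicates 2, 4, 1 and 3. A member of 13.2 CPM in control fragments held 13.5, 14.0 and 11.1 CPM in DjTcf4 RNAi fragments, against 4.57, 15.3, 3.94 and 12.1 CPM in DjTcf4 RNAi intact animals, where replicates 2 and 4 reached the fragments and replicates 1 and 3 did not (edgeR adjusted p = 0.451). It was chosen after its values were seen. Leaving out replicate 2 brought 9 of the 16 past the threshold, and 7 were called in neither fit.

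With the members split in 3 by mean CPM, 19 of the 21 highest were called higher at 5 dpa with DjTcf4 RNAi, 16 of the 20 in the middle and 10 of the 20 lowest. Of all tested genes in the same 3 ranges of mean CPM, 12.7%, 3.90% and 1.82% were called higher, from the highest range to the lowest, so calls fell with level over all genes too. Without replicate 2 the members called numbered 21, 19 and 14, against 30.1%, 13.4% and 4.08% of all genes in those ranges. The members' median log2 differences at 5 dpa with DjTcf4 RNAi were 1.30, 1.06 and 1.01 from the highest to the lowest set, and every member of each set stood higher at 5 dpa.

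**Figure D4:**
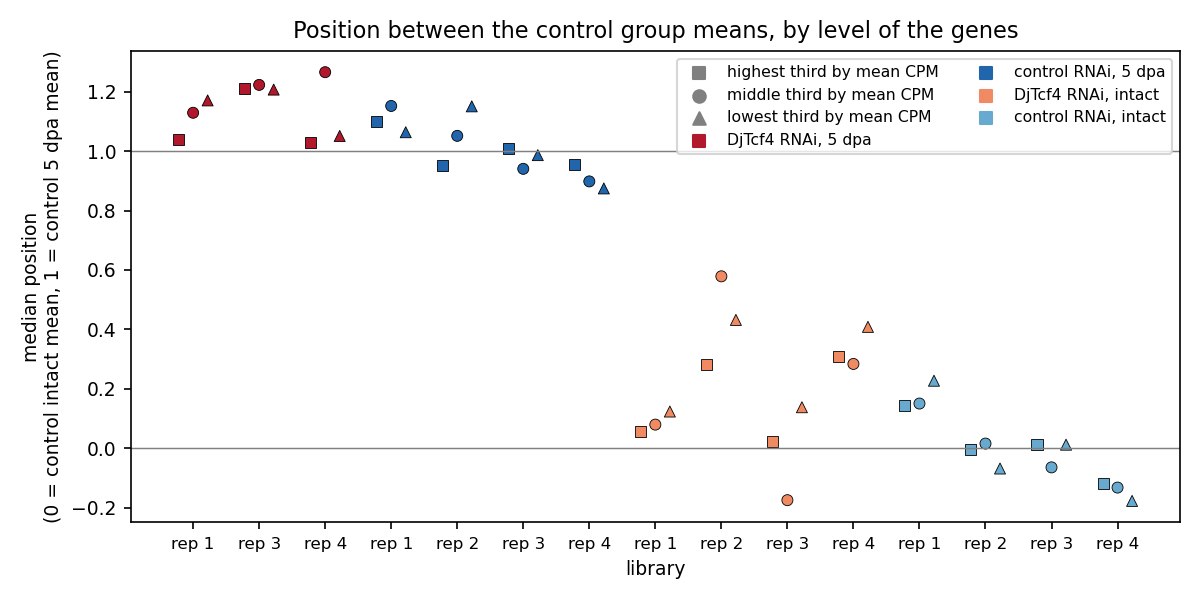
Median position of the members in each library, with a gene's control RNAi intact mean at 0 and its control RNAi 5 dpa mean at 1, separately for genes of high (squares, n = 21), middle (circles, n = 20) and low (triangles, n = 20) mean CPM. Fragment libraries lie between 0.87 and 1.27, and DjTcf4 RNAi intact libraries between -0.17 and 0.58, with replicates 2 and 4 above replicates 1 and 3 at every level.

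No member was called in intact animals between DjTcf4 RNAi and control RNAi. There edgeR called 0.0117% of all genes, so 0 calls among 61 members do not set them apart. DESeq2 and limma-voom called 0 members each, and their shares over all genes are not given here. This comparison shares the control intact libraries with the selection, which favoured genes that are low in them. At an unadjusted p under 0.05, 16 members were higher and 1 was lower with DjTcf4 RNAi, against 4.47% of all genes higher and 2.54% lower. The log2 fold change was positive for 54 of the 61 members, against 53.2% of all genes, with a median of 0.34 against 0.02. It was positive for 49 with DESeq2's size factors, against 49.3% of all genes, and for 51 with library size alone, against 53.1%. Without DjTcf4 RNAi intact replicate 2, 7 members were higher and 2 lower at an unadjusted p under 0.05, against 2.02% of all genes higher and 3.39% lower. In that fit 41 were positive, and the median was 0.20. The matching values over all genes in that fit are not given here, so these 2 values have nothing to be read against. By group medians without replicate 2, the members' median log2 difference was 0.11, with 41 above 0. Over all genes tested it was 0.019, with 9137 above 0.

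Few members separated the 2 treatments in intact animals completely. Every DjTcf4 RNAi intact library lay above every control intact library for 4 members, against 2.58% of all genes, and below for 1 member, against 1.32%. The largest difference between group medians belonged to a scarce member, which held 3.32, 3.72, 2.73 and 3.03 CPM with DjTcf4 RNAi and 1.68, 0.558, 2.10 and 0.831 CPM with control RNAi (edgeR log2 fold change 1.28, SE 0.345, unadjusted p = 0.00168). The one that was lower held 6.95, 6.60, 7.54 and 7.20 CPM with DjTcf4 RNAi and 9.18, 12.4, 8.40 and 8.20 CPM with control RNAi (edgeR log2 fold change -0.43, SE 0.157, unadjusted p = 0.0140). Both were chosen after their values were seen, and neither was called after adjustment over all genes (adjusted p = 0.468 and 0.672).

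Between DjTcf4 RNAi and control fragments no member was called either, where edgeR called 0.0468% of all genes. The selection excluded genes more than 0.4 log2 units lower and shares the control fragment libraries, so these values are a description. The log2 difference of group medians lay between -0.33 and 0.93 with a median of 0.18, and it was above 0 for 40 members and below 0 for 21. At an unadjusted p under 0.05, edgeR placed 8 members higher, against 1.05% of all genes, and 3 lower, against 2.18%. DESeq2 called 0. Every DjTcf4 RNAi fragment library lay above every control fragment library for 9 members, against 3.24% of all genes, and below for 4 members, against 2.6%. All 4 of those lying below were among the 9 most abundant members. Set against control intact animals, 60 members had every DjTcf4 RNAi fragment library above, where 20.3% of all genes did. This follows largely from the selection, whose limits put each member's DjTcf4 RNAi fragment median above its control intact median.

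Limma-voom with quality weights called 3 members higher in DjTcf4 RNAi fragments, against 0.0468% of all genes by that tool. One held 65.8, 71.4 and 56.1 CPM with DjTcf4 RNAi and 42.9, 43.8, 35.3 and 36.7 CPM with control RNAi (limma log2 fold change 0.74, adjusted p = 0.0232; edgeR adjusted p = 0.438). Another held 19.5, 23.9 and 14.3 CPM with DjTcf4 RNAi and 11.8, 10.3, 9.76 and 9.0 CPM with control RNAi (limma log2 fold change 0.96, adjusted p = 0.0237; edgeR adjusted p = 0.945). The last, with fractional counts, held 35.8, 44.8 and 37.8 CPM with DjTcf4 RNAi and 21.0, 29.9, 26.6 and 13.8 CPM with control RNAi (limma log2 fold change 1.01, adjusted p = 0.0397; edgeR adjusted p = 1.0). In each of these genes the treatments did not overlap, and edgeR and DESeq2 did not call them. They are described because that tool called them, so they too were chosen after their values were seen.

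Abundant and scarce members are given apart for the comparison of treatments. Among the 7 members at 100 CPM or more, the log2 difference of DjTcf4 RNAi from control RNAi had a median of -0.12 in fragments, with 6 of 7 below 0, and of -0.02 in intact animals, with 5 of 7 below 0. Among the other 54 members the medians were 0.23 in fragments, with 39 above 0, and 0.33 in intact animals, with 48 above 0. Over the 1827 genes tested at 100 CPM or more the median was 0.0029 in fragments, with 893 below 0. In intact animals it was 0.024, with 783 below 0. Over the 15267 genes tested under 100 CPM the median was 0.020 in fragments, with 8229 above 0. In intact animals it was 0.021, with 8173 above 0. The selection put a lower limit on the fragment difference in both sets of members. That limit left out genes of 13396 and 133 CPM in control fragments, with differences of -0.56 and -0.71, and others under 100 CPM. The split was made after the values were seen, and whether the 2 sets of members differ was not tested. The median position of the abundant members lay between -0.04 and 0.01 in all 4 DjTcf4 RNAi intact libraries, replicate 2 included.

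**Figure D5:**
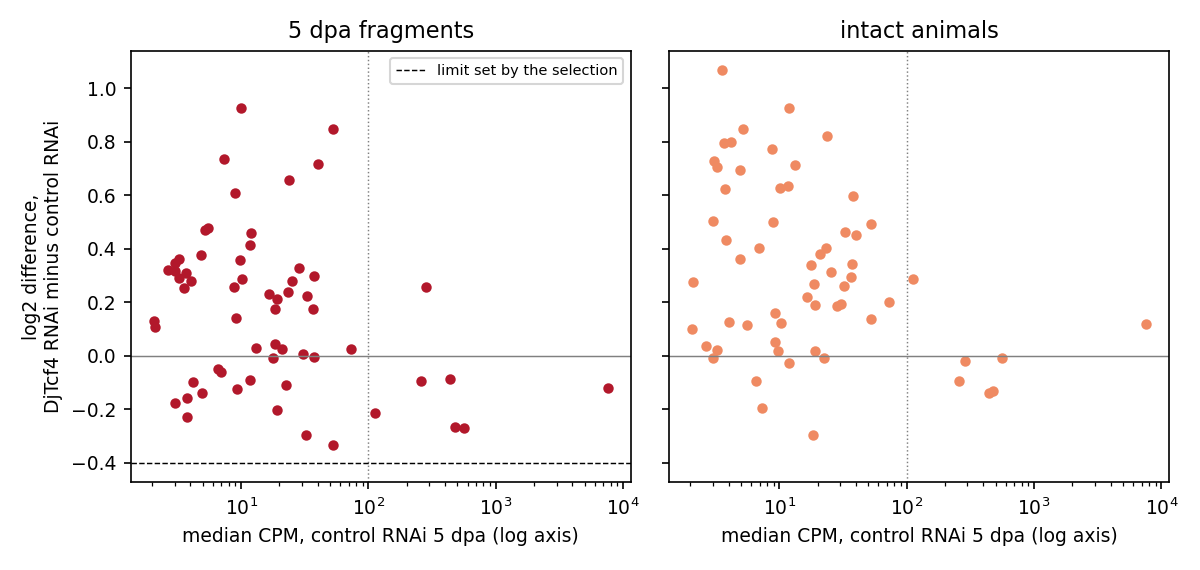
Log2 difference of DjTcf4 RNAi minus control RNAi for each of the 61 genes, from group median CPM plus 0.5, against the median CPM in control RNAi 5 dpa fragments on a log axis, in 5 dpa fragments (left) and in intact animals (right). The dashed line is the lower limit of -0.4 set by the selection, and the dotted line marks 100 CPM. To the right of 100 CPM 6 of 7 points lie below 0 in fragments and 5 of 7 in intact animals. Of all 1827 genes tested at that level, not drawn, 893 and 783 lie below 0.

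The 7 genes left out by the RNAi condition rose by log2 differences of 1.22 to 4.27 in control animals and stood 0.42 to 1.97 log2 units lower in DjTcf4 RNAi than in control fragments, by definition. Of these, 4 were called higher at 5 dpa with DjTcf4 RNAi by edgeR, against 6.81% of all genes tested. The most abundant, with fractional counts, had a larger control difference than any of the 61 members and group medians of 9112 CPM in DjTcf4 RNAi fragments, 13396 CPM in control fragments, 787 CPM in DjTcf4 RNAi intact animals and 693 CPM in control intact animals. The list of 61 therefore does not hold every gene that rose 2-fold. Its lower limit removed the genes whose DjTcf4 RNAi fragments stood lowest relative to control fragments, whatever their level.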

How the data were processed

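The authors deposited 1 table of expected counts, estimated counts per gene that need not be whole (8.23% of values have a fractional part). Per the submitters' processing notes, the tools were DESeq2, RSEM, HISAT2 and Bowtie2, listed with neither role nor version, and which genome build was used is not given in the sources used here. The members and lists were chosen with earlier results of these data known.

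CPM in the selection and in the text is the count over the library total. For tests, counts were rounded to whole numbers, genes were kept with filterByExpr by group (minimum count 10, minimum total 15; 17094 of 38792 rows), and TMM scaling with edgeR 4.0.16 in R 4.3.3 (quasi-likelihood, robust, 1 coefficient per group, all 15 libraries) gave log2 fold changes. P-values were Benjamini-Hochberg adjusted over all genes, with 0.05 as the threshold. An SE is the size of the log2 fold change over the root of its F statistic. The main edgeR fit for DjTcf4 RNAi fragments against intact animals was also run on simulated counts. Those had the same spread for every gene and no library that stood apart. That run therefore does not cover the alternatives or a library such as DjTcf4 RNAi intact replicate 2. Alternatives were limma 3.58.1 (voom, quality weights), DESeq2 1.42.0, other scalings and filters, a replicate block, the compared groups alone, and leaving out each library. Those without DjTcf4 RNAi intact replicate 2 beyond that, and the alternatives for the library medians, were added after the data were seen. IDs are printed for the member of largest control log2 difference (0.5 CPM added) among those with whole counts in every library, which is also the most abundant, and for the next in abundance. Members without an ID are the 10 most abundant and the 10 of largest control difference, plus those stated as chosen after their values were seen.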

Additional observations from a re-analysis of the deposited data

Results flagged for a closer look

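A sample far from the others of its group was looked for in 63 group values, each over the 4 libraries of a group: the CPM of the 15 members that are the most abundant or rose the most, and summary measures of each library such as its number of genes with a count. The check picked 4, and chance picks about 1 in 20. DJKW.18090 stood at 729 CPM in control 5 dpa replicate 1, against 558 to 561 CPM in the other 3 libraries of that group. DJKW.18090 stood at 65.4 CPM in DjTcf4 RNAi intact replicate 3, against 80.4 to 82.2 CPM in the other 3. The sixth most abundant member stood at 127 CPM in DjTcf4 RNAi intact replicate 2, against 85.5 to 89.3 CPM in the other 3. Genes with a count numbered 19944 in control 5 dpa replicate 2, against 21545 to 21719 in the other 3, and this library also had the lowest total count, 8136366.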

How the results depend on the processing

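Of 24 alternatives, 23 kept the count of members called higher at 5 dpa with DjTcf4 RNAi within 1.5 times of 45, between 36 and 56. The exception was the fit to the compared groups alone, with 28 called against 1.61% of all genes. It called 32 of the genes chosen on control libraries alone, of which 67 of 68 passed its filter. Without DjTcf4 RNAi intact replicate 2 that fit called 54, against 17.4% of all genes. Leaving out each library gave 36 to 54. With a replicate block 45 members were called, where 1213 of 17094 genes tested were called higher. The share of all genes called higher also moved between fits, at 6.81% in the main fit and 17.3% without DjTcf4 RNAi intact replicate 2. Shares in the other fits are not given here, so their member counts alone do not show how the fits compare. Same-numbered libraries did not consistently deviate together (21 pairs, correlations -0.33 to 0.30, 4 over 0.1), so the numbers were not taken as pairs. Libraries of unlike number were not compared in this way. DjTcf4 RNAi against control RNAi gave 0 calls in intact animals under all 23 alternatives, and in fragments under all but limma-voom, which gave 3. Over all genes the main fit called 0.0117% in intact animals and 0.0468% in fragments. The number of genes that met the selection lay between 52 and 101 when single libraries were left out, at 83 with TMM-scaled CPM and at 80 without the condition that libraries do not overlap. The log2 fold change at 5 dpa with DjTcf4 RNAi stayed between 2.60 and 2.85 for DJKW.17548 and between 2.51 and 2.76 for DJKW.18090, with a highest edgeR, DESeq2 or limma adjusted p of 0.000155. The difference in library medians between DjTcf4 RNAi fragments and intact animals, 1.10, stayed between 0.999 and 1.22. Counting error relative to level is largest for the members below 10 CPM. The members not called lay from 2.1 to 37.1 CPM in control fragments, with a median of 5.05 CPM. Whether counting error kept them from being called was not tested. The cause of the changed counts was not tested.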
